A study of Mus musculus with 46 samples.

Results

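The 10 genes described here encode ATPases and core subunits of the BAF family of complexes, not all of which occur in every kind of complex. They are Smarca4, Smarca2, Smarcb1, Smarcc1, Smarcc2, Smarce1, Smarcd1, Smarcd2, Smarcd3 and Actl6a. They were chosen by name as a list from the 56980 genes of the hSS2 count table and the 56941 genes of the hSS1 count table. All 10 passed the filter on low counts in both tables. RNA sequencing was performed on 46 mouse synovial sarcomas (SyS), with 1 library per tumor and each tumor from its own mouse. The hSS2 tumors express human SS18::SSX2 and the hSS1 tumors human SS18::SSX1, in both cases from Rosa26 after hindlimb injection of TATCre, a Cre recombinase protein that enters cells of any type at the injection site. The control tumors carry the fusion and the Cre injection too, so no group lacks the oncoprotein. In the hSS2 background 13 tumors were controls, and 8 each had floxed Pbrm1, Arid1a or Arid1b. In the hSS1 background 5 were controls and 4 had floxed Pbrm1. The suffix -fl marks floxed alleles of the named gene, homozygous per the study's methods, that the same Cre disrupts. The mice were of a mixed CB57Bl/6-svJ strain and 2 to 6 months of age, a range given for all mice of the study and not by group. Littermates served as controls, but which tumors came from the same litter is not given in the sources used here.

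BAF-family complexes use the energy of ATP to move or evict nucleosomes, and they open promoters and enhancers in most tissues. Each complex contains either SMARCA4 (BRG1) or SMARCA2 (BRM) as its ATPase. SMARCC1 and SMARCC2 form the scaffold on which a SMARCD paralog, SMARCE1 and SMARCB1 assemble, and ACTL6A joins with the ATPase. Canonical BAF (CBAF, with ARID1A or ARID1B) and PBAF (with PBRM1) contain SMARCB1 and SMARCE1, whereas GBAF lacks both. SS18 belongs to CBAF and GBAF, and the SS18::SSX fusion takes its place there.

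Smarca4 and Smarcb1 rose and fell together across tumors, as did Smarca2 and Smarcc2 (values below), and the promoter windows of these genes are shown for that reason. Each runs from 250 bases before the start of the gene to 50 bases after it, 5′ to 3′ on the gene's strand, as RefSeq gives it for GRCm38.p6. Capitals mark the GC box GGGCGG and its reverse complement CCGCCC, the letters that SP-family factors bind. The window of Smarca4 is chr9:21615919-21616218 on the plus strand. That of Smarcb1 is chr10:75921565-75921864 on the minus strand. Smarca2 is at chr19:26604910-26605209 and Smarcc2 at chr10:128458986-128459285, both on the plus strand. Each of the 4 windows spans the annotated start of its gene, so its last bases are the start of the transcript.
Smarca4: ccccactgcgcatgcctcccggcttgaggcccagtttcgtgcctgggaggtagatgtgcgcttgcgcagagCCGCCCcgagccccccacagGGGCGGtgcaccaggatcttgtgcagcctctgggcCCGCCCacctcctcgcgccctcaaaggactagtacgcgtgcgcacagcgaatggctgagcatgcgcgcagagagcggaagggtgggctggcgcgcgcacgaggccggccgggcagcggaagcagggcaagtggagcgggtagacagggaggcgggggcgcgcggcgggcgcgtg
Smarcb1: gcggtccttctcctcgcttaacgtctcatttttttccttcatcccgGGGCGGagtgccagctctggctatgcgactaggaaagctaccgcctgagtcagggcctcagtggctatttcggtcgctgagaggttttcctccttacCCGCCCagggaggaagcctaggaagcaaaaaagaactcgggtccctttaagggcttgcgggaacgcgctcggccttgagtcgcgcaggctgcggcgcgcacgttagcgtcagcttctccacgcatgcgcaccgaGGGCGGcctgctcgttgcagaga
Smarca2: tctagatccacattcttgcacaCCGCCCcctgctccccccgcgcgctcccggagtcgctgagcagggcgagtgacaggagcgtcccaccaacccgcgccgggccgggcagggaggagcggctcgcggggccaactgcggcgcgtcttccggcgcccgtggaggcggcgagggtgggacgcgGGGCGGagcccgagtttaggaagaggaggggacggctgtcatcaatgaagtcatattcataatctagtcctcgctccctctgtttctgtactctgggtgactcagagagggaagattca
Smarcc2: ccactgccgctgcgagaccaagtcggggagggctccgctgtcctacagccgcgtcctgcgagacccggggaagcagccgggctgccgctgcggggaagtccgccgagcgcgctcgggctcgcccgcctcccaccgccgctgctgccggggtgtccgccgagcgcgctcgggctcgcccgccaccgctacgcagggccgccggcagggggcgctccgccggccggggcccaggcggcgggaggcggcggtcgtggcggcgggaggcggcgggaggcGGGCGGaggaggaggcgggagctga
RefSeq windows were found for 9 of the 10 genes, all but Smarce1. The GC box, searched on both strands, was in all 9 of these windows and in 35.7% of all 32851 RefSeq promoter windows. It occurred 3 times in Smarca4, Smarcb1 and Actl6a, 2 times in Smarca2, Smarcd2 and Smarcd3, and 1 time in Smarcc1, Smarcc2 and Smarcd1. The window of Smarcc2 held 48 CG dinucleotides, that of Smarca4 33, that of Smarca2 29 and that of Smarcb1 27, against a median of 7 over all windows. Smarcd2 differed, with 4 CG dinucleotides and a TATA box (TATAAA, in 13.6% of all windows). Its window, chr11:106267583-106267882 on the minus strand, lies inside the gene, whose annotated 5′ end is at 106272972. The windows of Smarcc1, Smarcd3 and Actl6a also lie inside the annotated gene. These windows may therefore not be those of the main start, which was not tested. A match of letters is a description and not evidence of binding.

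The libraries held 10.1 to 21.3 M counted reads. In the hSS2 Pbrm1-fl tumors Pbrm1 was 95.0 to 139 CPM (read counts per M counted reads, with library sizes scaled by TMM) against 171 to 316 in hSS2 control tumors, and Arid1a in Arid1a-fl tumors was 229 to 276 CPM against 238 to 587. The lowest of those control values, 238 CPM, was from the library labeled hSS2 control replicate 9, where the next control was at 422. The level in that library lies within the range of the Arid1a-fl tumors and goes against its label, and a control with low Arid1a and a mixed-up label cannot be told apart. Arid1b overlapped between groups (111 to 347 CPM in hSS2 Arid1b-fl tumors, 222 to 686 in controls), and in hSS1 Pbrm1-fl tumors Pbrm1 was 102 to 252 CPM against 275 to 373. None of 10 listed synovial sarcoma marker genes was at 0 in any group. The tumors were sequenced whole, and the summed level of 15 skeletal muscle genes ran from 23.6 to 108840 CPM among hSS2 control tumors. In such samples, fewer cells of a type and less RNA per cell cannot be told apart. The mouse numbers in the labels fall into ranges (under 1000, 1000 to under 2000, 2000 and over). Among hSS2 tumors these coincide with the floxed gene, being Arid1a, Arid1b and Pbrm1 in that order. All 4 hSS1 Pbrm1-fl tumors were instead in the range of 1000 to under 2000. The floxed groups were therefore also compared with the control tumors of the same background and range alone.

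Every member was well expressed in hSS2 control tumors. The levels are in CPM, which grows with gene length, so they serve to compare tumors and not genes. Among the ATPase genes, Smarca2 had 449 ± 171 CPM (SD, n = 13) and Smarca4 227 ± 31.95. The scaffold paralogs Smarcc2 and Smarcc1 had 317 ± 38.9 and 202 ± 40.1 CPM. Smarcb1, the subunit lost in rhabdoid tumors, had 91.4 ± 13.3 CPM, and Smarce1, which carries a DNA-binding HMG domain, had 88.1 ± 9.87. The SMARCD paralogs had 53.7 ± 11.95 CPM for Smarcd1, 59.1 ± 9.35 for Smarcd2 and 54.1 ± 14.6 for Smarcd3. Actl6a, an actin-related protein of dividing cells, had 29.3 ± 3.85 CPM. The members differed in how far they varied between control tumors. Smarca2 ranged 4.26-fold, from 181 to 770.3 CPM, and Smarcd3 2.76-fold, whereas Smarce1 ranged 1.42-fold and Actl6a 1.51-fold.

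Levels of different genes can be compared only per length, and the order then depended on the length used. Per kilobase of all annotated exons, Smarcc2 led in hSS2 control tumors at 57.1 ± 7.02 CPM per kb (n = 13) and stood above Smarca4 in all 13. Smarca4 followed at 35.1 ± 4.93 and Smarca2 at 31.5 ± 11.96, and these neighbors did not differ beyond their spread (Smarca4 was higher in 9 of 13). Smarcc1 had 25.7 ± 5.12, and Smarcd2, Smarcd1, Smarce1, Smarcb1 and Smarcd3 lay between 10.6 and 16.5 CPM per kb on average. Actl6a was last at 7.53 ± 0.991. Smarca2 has 14269 bases of exon over all its transcripts but 5921 in its principal one. Per kilobase of principal transcript Smarca2 had the highest mean at 75.8 ± 28.8, which was not separated from Smarcc2 at 69.9 ± 8.59 (Smarca2 was higher in 7 of 13), and Smarca4 was the fourth at 35.8 ± 5.03, with the Smarca4 to Smarca2 ratio above 1 in 0 of 13 control tumors rather than 9 of 13. Smarcb1 moved from the eighth place to the third, at 55.1 ± 8.03 CPM per kb. Differences between groups do not depend on the length. In hSS1 control tumors Smarca4 led per kilobase of exon (55.4 ± 7.86, n = 5), with Smarcc2 at 51.3 ± 7.08 not separated from it, and Smarca2 was the seventh at 18.5 ± 13.5. Per kilobase of principal transcript Smarcb1 led there instead at 74.4 ± 8.41, above Smarcc2 in 5 of 5 tumors. Smarca4 was then the fourth at 56.4 ± 8.01.

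**Figure D1:**
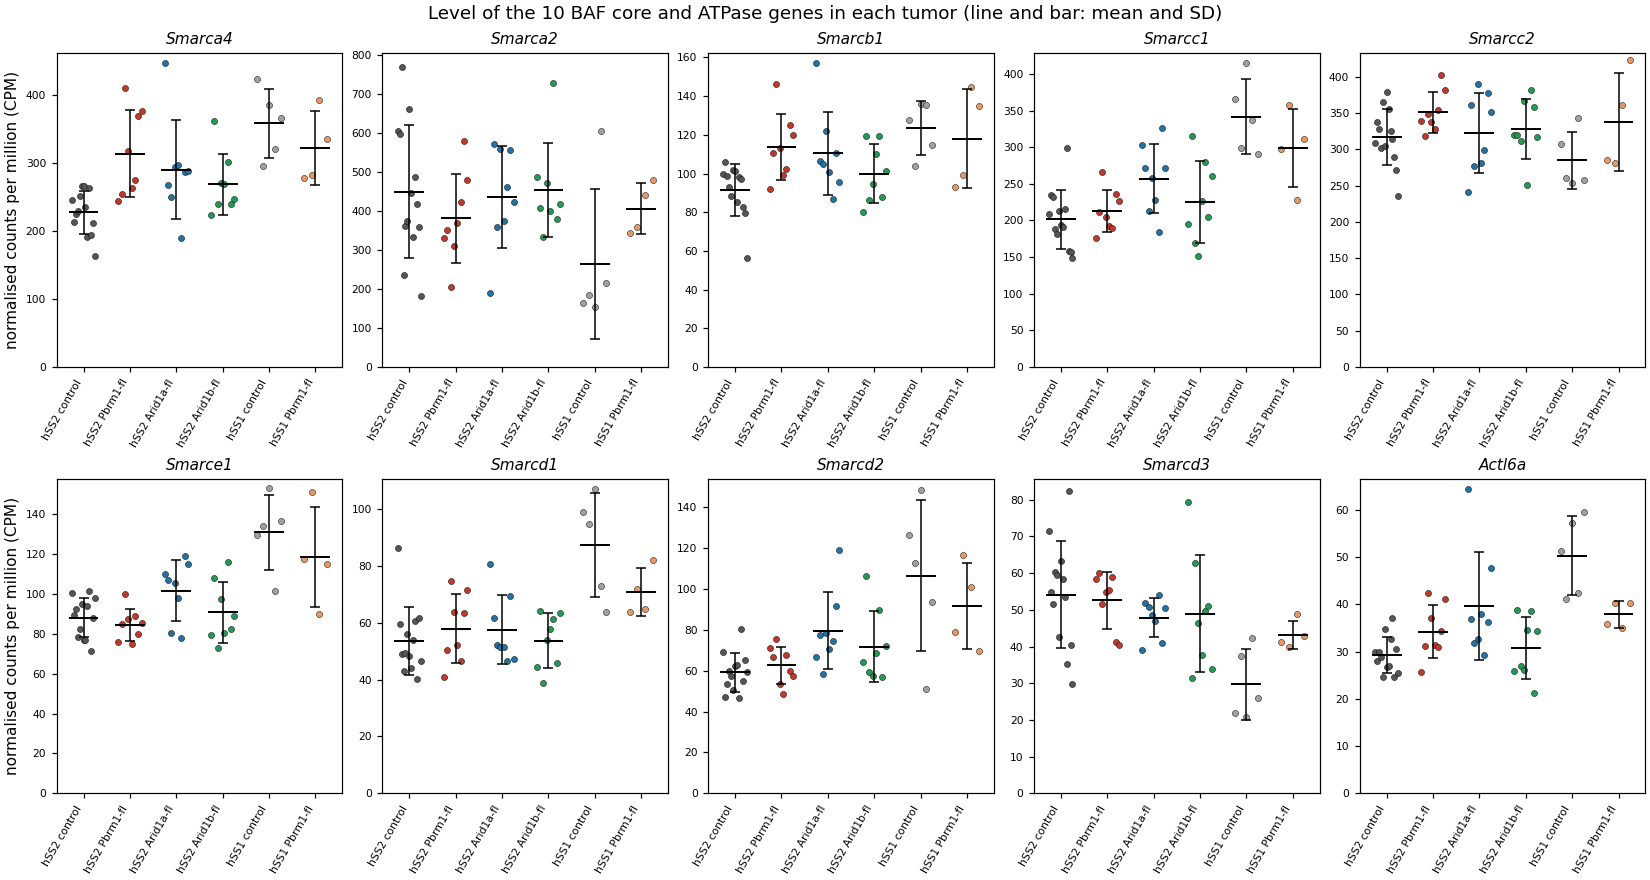
Level of each of the 10 genes in every tumor, in CPM (vertical axis, from 0), by group, with the mean and SD as line and bar. The hSS1 and hSS2 tables were scaled separately. Smarca4 lies between 244 and 411 CPM in the 8 hSS2 Pbrm1-fl tumors, and Smarca2 spreads from 181 to 770.3 CPM in hSS2 control tumors.

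The first comparison asks whether the core and ATPase subunits change when PBAF loses Pbrm1. Smarca4 was the member that rose in hSS2 Pbrm1-fl tumors. It had a lowest, median and highest value of 244, 296 and 411 CPM, against 164, 229.5 and 267 in hSS2 control tumors. All 8 Pbrm1-fl tumors lay above the control median and 5 of the 8 above every control tumor. The change was 0.47 on the log2 scale (SE 0.12, adjusted p = 0.0126, edgeR's quasi-likelihood F-test with p adjusted by Benjamini-Hochberg over 20083 genes). It was 1 of 10 members called, where 7.35% of all tested genes were called and 3.4% were called higher. Without hSS2 Pbrm1-fl replicate 3 the change was 0.39 with an adjusted p of 0.0539, and without the library labeled hSS2 control replicate 9 it was 0.42 with an adjusted p of 0.0297. Against the 4 control tumors of the same mouse number range the change was of like size, 0.46, with an adjusted p of 0.135.

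Smarcb1 was next, with 92.0, 112 and 147 CPM in hSS2 Pbrm1-fl tumors and 56.1, 97.2 and 106 in controls. Of the 8 Pbrm1-fl tumors, 5 lay above every control, but the change of 0.31 (SE 0.10) did not pass (adjusted p = 0.0568). It passed on leaving out hSS2 control replicate 1 (adjusted p = 0.047) or hSS2 Pbrm1-fl replicate 1 (adjusted p = 0.0407). The second ATPase gene, Smarca2, had 205, 360.2 and 579 CPM, within the control range in all 8 tumors, and was at -0.24 on the log2 scale (SE 0.22, adjusted p = 0.555). Smarcc2 was above the control median in 8 of 8 tumors at 0.15 (SE 0.087, adjusted p = 0.311), and Actl6a in 7 of 8 at 0.23 (SE 0.12, adjusted p = 0.28). Smarcc1 (0.08), Smarcd1 (0.11), Smarcd2 (0.08), Smarcd3 (-0.04) and Smarce1 (-0.06) had standard errors of 0.087 to 0.15 and adjusted p of 0.667 or over. The median log2 fold change of the 10 members was 0.09, and that of all tested genes was -0.0042. Beside this, 24 of the 25 proliferation genes had positive fold changes (median 0.28, 0 called, summed level 524 to 2761 CPM against 274 to 2520.0 in controls). None of the 15 skeletal muscle genes did (median -0.88, 0 called, summed level 16.6 to 38134 CPM against 23.6 to 108840). All 9 macrophage genes were positive (median 0.39, 0 called, summed level 35.9 to 736 CPM against 73.8 to 490.3). Of the fibroblast genes 2 of 6 were positive (median -0.42, 0 called, 2 with an unadjusted p under 0.05, summed level 1181 to 13130 CPM against 1409 to 14864). None of the 5 erythroid genes was positive (median -1.43, 0 called, summed level 55.3 to 555 CPM against 28.9 to 1887). Of 9 synovial sarcoma marker genes tested, 2 were positive (median -0.40, 1 called higher, 5 with an unadjusted p under 0.05, summed level 743 to 1602 CPM against 695 to 1243). Among all 20083 tested genes 4490 had an unadjusted p under 0.05. The part of the macrophage, fibroblast, erythroid and synovial sarcoma genes in the Smarca4 result was not tested. With the mean muscle score as a covariate Smarca4 was called at 0.39 (adjusted p = 0.0228), and with the proliferation score at 0.38 (adjusted p = 0.0172).

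In tumors with disrupted Arid1a, a subunit of CBAF, Smarcd2 and Actl6a rose. Smarcd2, a BAF60 paralog prominent in myeloid cells, had 58.1, 75.9 and 119 CPM in hSS2 Arid1a-fl tumors and 46.4, 59.1 and 80.4 in hSS2 controls. It was above the control median in 7 of 8 tumors and above every control in 2. The change was 0.43 (log2, SE 0.12, adjusted p = 0.0453, edgeR). Actl6a had 29.2, 36.6 and 64.3 CPM against 24.6, 28.8 and 37.2, above the control median in 8 of 8 tumors and above every control in 3. Actl6a changed by 0.44 (log2, SE 0.12, adjusted p = 0.0467). These were 2 of 10 members called, where 3.17% of all tested genes were called and 1.41% were called higher. Both lie near the threshold, and each was called in 8 of the 21 fits that left out 1 tumor. Smarcd2 was lost without hSS2 control replicate 4, 5, 6, 7, 9, 12 or 13 or hSS2 Arid1a-fl replicate 1, 2, 4, 5, 7 or 8, with the least change without the last (0.32, adjusted p = 0.151). Actl6a was lost without hSS2 control replicate 4, 5, 7, 8, 9, 11, 12 or 13 or hSS2 Arid1a-fl replicate 1, 2, 5, 7 or 8, with the least change without Arid1a-fl replicate 1 (0.30, adjusted p = 0.156). Without the library labeled hSS2 control replicate 9 they were at 0.41 (adjusted p = 0.0564) and 0.46 (adjusted p = 0.0502).

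Smarca4 pointed the same way in Arid1a-fl tumors as in Pbrm1-fl tumors without passing. It had 190.2, 288 and 448 CPM in hSS2 Arid1a-fl tumors, above every control in 6 of 8 tumors and below the control median in 1. Its change was 0.35 (SE 0.12, adjusted p = 0.0788). DESeq2 called it (0.36, adjusted p = 0.0444), and so did edgeR against the 5 controls of the same mouse number range (0.51, adjusted p = 0.0387). In that last fit Smarcb1 was called as well (0.42, adjusted p = 0.0491, against 0.27 and adjusted p = 0.114 with all controls), whereas Smarcd2 (0.38, adjusted p = 0.127) and Actl6a (0.40, adjusted p = 0.125) were not. Smarcc1 had 184, 265 and 326 CPM against 149, 194 and 299, a change of 0.35 (SE 0.12, adjusted p = 0.0946). Without hSS2 Arid1a-fl replicate 6, Smarca4 (0.42, adjusted p = 0.0269) and Smarcc1 (0.41, adjusted p = 0.0438) were called, and without hSS2 control replicate 10 Smarcc1 was (0.41, adjusted p = 0.0392). Smarce1 was at 0.21 (SE 0.086, adjusted p = 0.149). Smarcd1 (0.10), Smarcc2 (0.03), Smarca2 (-0.04) and Smarcd3 (-0.18) had adjusted p of 0.497 or over, although all 8 Arid1a-fl tumors lay below the control median of Smarcd3. The members' median was 0.24 and that of all tested genes -0.04. All 25 proliferation genes were positive in the same comparison (median 0.78, 1 called, summed level 642 to 3812 CPM against 274 to 2520.0), and with the proliferation score in the fit Smarcd2 was at 0.42 (adjusted p = 0.117) and Actl6a at 0.22 (adjusted p = 0.294). With the muscle score in the fit Smarcd2 was at 0.42 (adjusted p = 0.0544) and Actl6a at 0.37 (adjusted p = 0.0496). Markers of other cells also moved with the comparison, with 0 called in each list. Of the skeletal muscle genes 0 of 15 were positive (median -1.43, summed level 13.3 to 24816 CPM against 23.6 to 108840), and of the adipocyte genes 0 of 6 (median -2.99, 4 with an unadjusted p under 0.05, 0.333 to 23.0 CPM against 0.354 to 310.4). Among all 20083 tested genes 4621 had an unadjusted p under 0.05. None of the 3 lymphocyte genes tested was positive (median -2.52, 0.155 to 1.59 CPM against 0.198 to 37.5), nor any of the 3 Schwann cell genes tested (median -1.68, 8.70 to 16.3 CPM against 7.99 to 60.1). All 5 erythroid genes were positive (median 1.02, 14.7 to 3903 CPM against 28.9 to 1887). Of the macrophage genes 1 of 9 was positive (median -0.31, 61.6 to 423 CPM against 73.8 to 490.3). Of the fibroblast genes 2 of 6 were (median -0.74, 1 with an unadjusted p under 0.05, 2104 to 8925 CPM against 1409 to 14864). Of the endothelium genes 5 of 7 were (median 0.07). The part of these lists, muscle aside, in the Smarcd2 and Actl6a results was not tested.

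In hSS2 Arid1b-fl tumors 0 of 10 members were called by edgeR and 0 by DESeq2, where edgeR called 0.0548% of all tested genes. Smarca4 (0.24, SE 0.12) and Smarcd2 (0.28, SE 0.12) had an unadjusted p under 0.05, with adjusted p of 0.796 and 0.749. Among all 20083 tested genes 1250 had an unadjusted p under 0.05. Smarca4 had 224, 258 and 363 CPM, with 4 of the 8 tumors above every control. The other 8 members had fold changes from -0.14 (Smarcd3, SE 0.15) to 0.16 (Smarcc1, SE 0.13), among them Smarcb1 (0.13), Actl6a (0.08), Smarcc2 (0.05), Smarce1 (0.04), Smarca2 (0.01) and Smarcd1 (-0.0017). All 5 erythroid genes were positive in Arid1b-fl tumors, each with an unadjusted p under 0.05 (median 4.27, 0 called). Their summed level was 24.9 to 47393 CPM against 28.9 to 1887 in controls, with group medians of 58.5 and 79.6. Of the skeletal muscle genes 14 of 15 were positive (median 0.34, 0 called), and of the adipocyte genes 0 of 6 (median -0.63, 0 called). The 3 comparisons with hSS2 control tumors share the 13 controls and are not independent.

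The floxed hSS2 groups were also compared directly. Each of these groups lies in its own mouse number range, so the floxed gene and the range cannot be told apart here. Between Pbrm1-fl and Arid1a-fl tumors 0 of 10 members were called by edgeR, where 12.3% of all tested genes were, while DESeq2 called 1, Smarce1. By edgeR Smarce1 was at -0.26 in Pbrm1-fl minus Arid1a-fl tumors (SE 0.097, adjusted p = 0.067) and Smarcd2 at -0.35 (SE 0.13, adjusted p = 0.086), and these were the 2 members with an unadjusted p under 0.05. Among all 20083 tested genes 5374 had an unadjusted p under 0.05. On leaving out 1 tumor, edgeR called 1 member without hSS2 Pbrm1-fl replicate 3 or hSS2 Arid1a-fl replicate 6 and 2 without hSS2 Arid1a-fl replicate 3. Between Pbrm1-fl and Arid1b-fl tumors 0 members were called by either tool, where edgeR called 4.37% of all tested genes. There 0 members had an unadjusted p under 0.05, against 3599 of all 20083 tested genes. Between Arid1a-fl and Arid1b-fl tumors both tools called 0 members, where edgeR called 0.0996% of all tested genes. Actl6a was the only member there with an unadjusted p under 0.05 (0.36, SE 0.14, adjusted p = 0.283), where 2517 of all 20083 tested genes had one. Smarca4 in Pbrm1-fl tumors was 0.11 above Arid1a-fl tumors (SE 0.13, adjusted p = 0.633) and 0.22 above Arid1b-fl tumors (SE 0.13, adjusted p = 0.393), so its level was not shown to differ among the floxed groups.

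The Pbrm1 comparison was repeated in the hSS1 background. No member passed there. Smarca4 had 278, 283, 336 and 393 CPM in the 4 hSS1 Pbrm1-fl tumors and 296, 321, 367, 385 and 424 in the 5 hSS1 controls, so that 3 of the 4 were below the control median. On the log2 scale this was -0.15 (SE 0.16, adjusted p = 0.642, edgeR over 17786 genes). Smarca2 had 344, 358, 441 and 479.6 CPM in Pbrm1-fl tumors against 155, 163, 184, 214 and 605 in controls. All 4 Pbrm1-fl tumors lay above 4 of the 5 controls and below hSS1 control replicate 4, and the change was 0.62 (SE 0.41, adjusted p = 0.467). Without that control it was 1.19 (adjusted p = 0.0667). Actl6a had 35.1, 35.9, 40.2 and 40.3 CPM against 41.2, 42.3, 51.2, 57.2 and 59.5. These groups did not overlap, all 4 Pbrm1-fl tumors being lower, yet the change of -0.41 (SE 0.15) did not pass across all genes (adjusted p = 0.218). How many of all tested genes separate in this way was not determined, so the separation is not shown to be particular to Actl6a. Smarcd3, the BAF60 paralog of heart and muscle, had 39.8, 41.3, 42.8 and 48.7 CPM against 20.8, 22.0, 25.9, 37.5 and 42.4, a change of 0.54 (SE 0.23, adjusted p = 0.277).

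By edgeR and by DESeq2, 0 of 10 members were called in hSS1 Pbrm1-fl tumors, where edgeR called 0.00562% of all tested genes. Smarcd3 and Actl6a had an unadjusted p under 0.05, as had 3059 of all 17786 tested genes. The remaining changes were -0.31 for Smarcd1, -0.22 for Smarcd2, -0.19 for Smarcc1, -0.14 for Smarce1, -0.07 for Smarcb1 and 0.25 for Smarcc2, with standard errors of 0.16 to 0.29. Of the 25 proliferation genes, 24 had negative fold changes in hSS1 Pbrm1-fl tumors (median -0.82, 0 called, summed level 1238 to 2390.1 CPM against 1684 to 4125). All 5 fibroblast genes tested had positive fold changes (median 1.48, 0 called, 3 with an unadjusted p under 0.05, summed level 2067 to 5927 CPM against 450 to 2171). None of the 6 skeletal muscle genes tested did (median -3.26, 0 called, summed level 14.7 to 211 CPM against 12.8 to 4451). With the muscle score in the fit Smarca2 was at 0.53 and Smarcd3 at 0.54 (adjusted p = 0.591 and 0.391), and with the proliferation score at 1.32 and 0.57 (adjusted p = 0.272 and 0.414). The part of the fibroblast genes was not tested. Whether Pbrm1 disruption acted differently on the members in the 2 backgrounds was tested as an interaction over all 46 libraries, hSS1 minus hSS2. By edgeR and by DESeq2 it was called for 0 of 10 members, where edgeR called 2.86% of all tested genes. By edgeR 5 of 10 members had an unadjusted p under 0.05, as had 4111 of all 21725 tested genes. Without hSS1 control replicate 4, edgeR called 1 member. The difference was -0.62 (SE 0.21, adjusted p = 0.0947) for Smarca4, -0.64 (SE 0.22, adjusted p = 0.0902) for Actl6a, -0.39 (SE 0.19, adjusted p = 0.256) for Smarcb1, 0.57 (SE 0.28, adjusted p = 0.256) for Smarcd3 and 0.84 (SE 0.42, adjusted p = 0.26) for Smarca2. The loss of Pbrm1 itself was not of equal depth. Its median was 97.1 CPM in hSS2 Pbrm1-fl tumors against 253 in hSS2 controls, and 218 against 338 in the hSS1 groups. The paper also reports less depletion of Pbrm1 in hSS1 tumors. The part of this unequal loss in the differences between backgrounds was not tested.

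The 2 kinds of control tumors differed in nearly all members, with most core genes higher in hSS1 and Smarca2 and Smarcd3 lower. The fusion, the count table and the number that begins each library name change together here and cannot be told apart. Both sets of raw counts were scaled and fitted together for the test, while the CPM values were scaled within each table. Of the 10 members, 7 were higher in hSS1 control than in hSS2 control tumors and 2 were lower (edgeR), where 24.7% of all tested genes were called, 12.7% higher and 12% lower. The scaffold gene Smarcc1 had 291, 299, 337, 366 and 415 CPM in hSS1 controls against 149 to 299 in hSS2 controls, a difference of 0.67 (log2, SE 0.14, adjusted p = 0.000635). Actl6a (0.69, SE 0.14, adjusted p = 0.000427), Smarce1 (0.48, SE 0.10, adjusted p = 0.0011) and Smarca4 (0.57, SE 0.13, adjusted p = 0.00244) were above every hSS2 control in all 5 hSS1 controls. The share of all tested genes with such a separation was not determined. Smarcd2 (0.75, SE 0.16) and Smarcd1 (0.61, SE 0.14) were also higher, and Smarcb1 by least (0.35, SE 0.12, adjusted p = 0.0328).

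Smarcd3 was lower (-0.95, SE 0.19, adjusted p = 0.00053), and 5 of 5 hSS1 control tumors lay below the hSS2 control median. Smarca2 was lower (-0.85, SE 0.28, adjusted p = 0.026) in 4 of 5 tumors, with hSS1 control replicate 4 at 605 CPM above the hSS2 control median. Its call was lost on leaving out hSS1 control replicate 1 (adjusted p = 0.0961), 2 (0.0783), 3 (0.105) or 5 (0.0679), whereas without replicate 4 the difference was -1.42 (adjusted p = 0.000344). The call of Smarcb1 was lost without hSS1 control replicate 1 (0.0716), 3 (0.0984) or 4 (0.0903) or hSS2 control replicate 11 (0.0508). Smarcc2 did not pass (-0.24, SE 0.11, adjusted p = 0.0938). Other measures moved with these. All 25 proliferation genes were called higher in hSS1 controls (median 1.48, summed level 1684 to 4125 CPM against 274 to 2520.0). Called lower were 3 of 15 skeletal muscle genes (median -5.60, 12.8 to 4451 CPM against 23.6 to 108840), 3 of 6 fibroblast genes (median -2.33, 450 to 2171 CPM against 1409 to 14864) and 6 of 6 adipocyte genes (median -6.81, 0.357 to 1.44 CPM against 0.354 to 310.4, with Lep at 0 in hSS1 controls). With the proliferation score in the fit 3 of the 10 members were called, Smarca2, Smarcd2 and Smarcd3. Smarcb1 was then at 0.02 (adjusted p = 0.927), Smarca4 at 0.27 (adjusted p = 0.241) and Smarcc1 at 0.38 (adjusted p = 0.0864). Smarcb1 was also lost with the muscle score (0.20, adjusted p = 0.215) and with no filter (0.32, adjusted p = 0.0884).

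**Figure D2:**
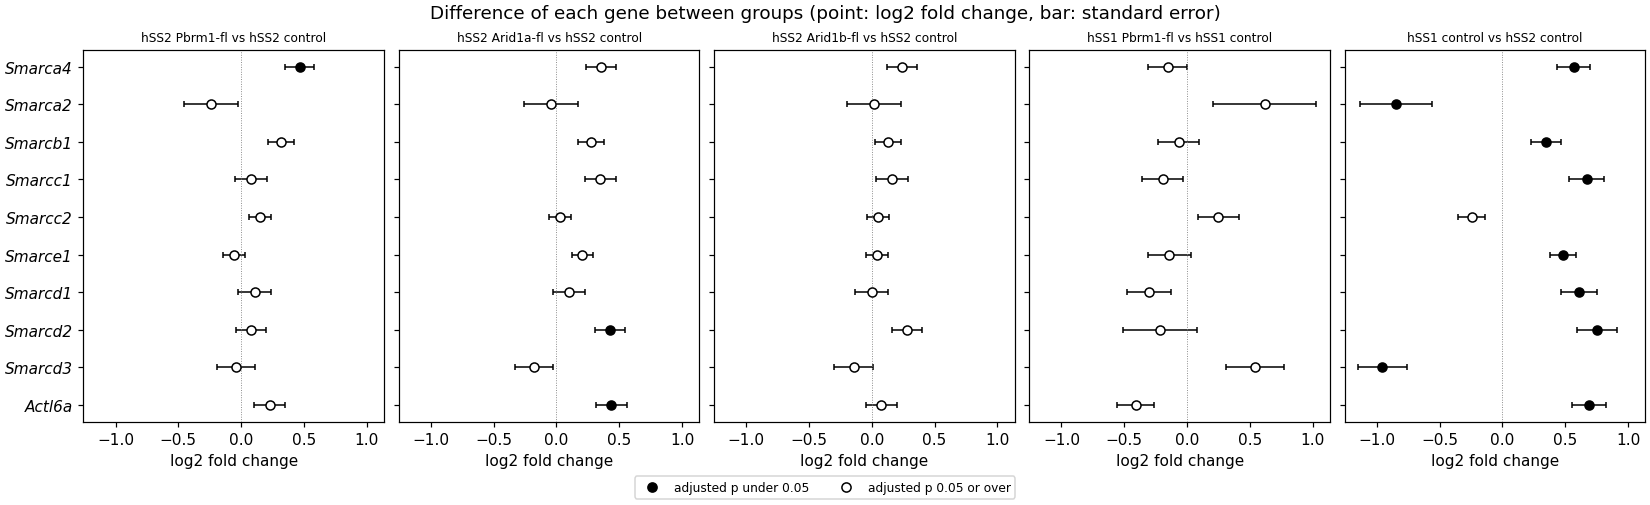
Log2 fold change of each gene (horizontal axis) in 5 comparisons, with its standard error as the bar. Filled points passed an adjusted p of 0.05 in edgeR, which were 1, 2, 0, 0 and 9 of the 10 genes from left to right. The first 3 panels share the 13 hSS2 control tumors.

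Ratios between paralogs within a tumor need no scaling between libraries, and they were compared as log2 ratios of counts per kilobase of exon. In hSS2 control tumors the Smarca4 to Smarca2 log2 ratio was 0.25 ± 0.51 (SD, n = 13) and in hSS2 Pbrm1-fl tumors 0.89 ± 0.55 (n = 8). All 8 Pbrm1-fl tumors were above the control median, at 0.49 to 2.15. The difference of 0.64 had p = 0.0121 by a two-sided exact permutation test and did not pass adjustment over the 25 ratio tests (adjusted p = 0.0588). It passed without hSS2 control replicate 4 (0.72, adjusted p = 0.0178) or replicate 13 (0.71, adjusted p = 0.0247). In the hSS1 background the values were ordered the other way. The ratio was 0.63, 0.80, 0.83 and 0.97 in hSS1 Pbrm1-fl tumors and 0.23, 1.82, 1.91, 2.46 and 2.51 in hSS1 controls, where replicate 4 was the low value. The difference of -0.98 had p = 0.0794 by the exact permutation test, whose smallest possible p is 0.0159.

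The effects of Pbrm1-fl on this ratio in the 2 backgrounds differed by -1.62 on the log2 scale (exact permutation of genotype within background, p = 0.0059, adjusted p = 0.0295 over 5 ratios). This test was added after the values had been seen. It was not past the threshold without hSS2 Pbrm1-fl replicate 3 (-1.44, adjusted p = 0.0645), nor without any 1 of hSS1 control replicates 1, 2, 3 and 5 or of the 4 hSS1 Pbrm1-fl tumors (-1.68 to -1.44, adjusted p 0.0557 to 0.0797). With control tumors of the same mouse number range it was -1.63 with an adjusted p of 0.142. The differences between backgrounds for the other 4 ratios did not pass, Smarcd1 to Smarcd3 being nearest (-0.99, p = 0.0401, adjusted p = 0.1, exact permutation). Without hSS1 control replicate 4 the differences of Smarcd1 to Smarcd3 (-1.19) and Smarcd2 to Smarcd3 (-1.22) passed as well (adjusted p = 0.0376 for both, exact permutation). Pbrm1 itself was less depleted in hSS1 than in hSS2 Pbrm1-fl tumors, and the part of this in the ratio differences was not tested.

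Among the scaffold paralogs Smarcc2 exceeded Smarcc1 per kilobase of exon in all 37 hSS2 tumors. The Smarcc1 to Smarcc2 log2 ratio was -1.16 ± 0.25 in hSS2 controls, which put Smarcc1 at 30.99% ± 3.79 (n = 13) of the pair, and -0.83 ± 0.31 (n = 8) in hSS2 Arid1a-fl tumors. The difference was 0.34, with 7 of 8 tumors above the control median (exact permutation p = 0.0145, adjusted p = 0.0588). It passed without hSS2 Arid1a-fl replicate 6 (0.39, adjusted p = 0.0338) or hSS2 control replicate 10 (0.38, adjusted p = 0.0087). Of the SMARCD transcripts in hSS2 controls, Smarcd2 held 40.9% ± 5.06, Smarcd1 32.96% ± 4.90 and Smarcd3 26.1% ± 6.25 (n = 13) per kilobase of exon. On principal transcript lengths Smarcd3 led instead, at 44.7% ± 8.12. Exons of Smarcd3 overlap those of Chpf2 and Mir671 on the opposite strand over 2564 of 5120 bases, and the strand setting of the counting is not given in the sources used here, so its level is uncertain. In hSS2 Arid1a-fl tumors the Smarcd2 to Smarcd3 ratio was 1.22 ± 0.35 against 0.68 ± 0.50, with 8 of 8 tumors above the control median. The difference was 0.55 (exact permutation p = 0.0165, adjusted p = 0.0588). It passed without hSS2 Arid1a-fl replicate 3 (0.62, adjusted p = 0.0491), hSS2 control replicate 10 (0.63, adjusted p = 0.0127) or hSS2 control replicate 13 (0.61, adjusted p = 0.026).

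The ratios that passed over all 25 tests were 4, all between hSS1 and hSS2 control tumors. Smarca4 to Smarca2 was higher in hSS1 controls by 1.54 (exact permutation p = 0.0021, adjusted p = 0.0131, 4 of 5 tumors above the hSS2 control median). Smarcc1 to Smarcc2 was higher by 0.93, with 5 of 5 tumors above the hSS2 control median (exact permutation p = 0.000233, the smallest this design gives, adjusted p = 0.00584). The share of Smarcc1 in its pair was thus 45.9% ± 4.68 (n = 5). Smarcd1 to Smarcd3 was higher by 1.57 (adjusted p = 0.00584) and Smarcd2 to Smarcd3 by 1.65 (adjusted p = 0.0131, both by exact permutation), each with 5 of 5 tumors above the hSS2 control median. Smarcd3 held 11.1% ± 5.84 (n = 5) of the SMARCD transcripts in hSS1 controls. Smarcd1 to Smarcd2 differed by -0.07 (exact permutation p = 0.714). None of the 4 calls was lost on leaving out any 1 tumor.

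**Figure D3:**
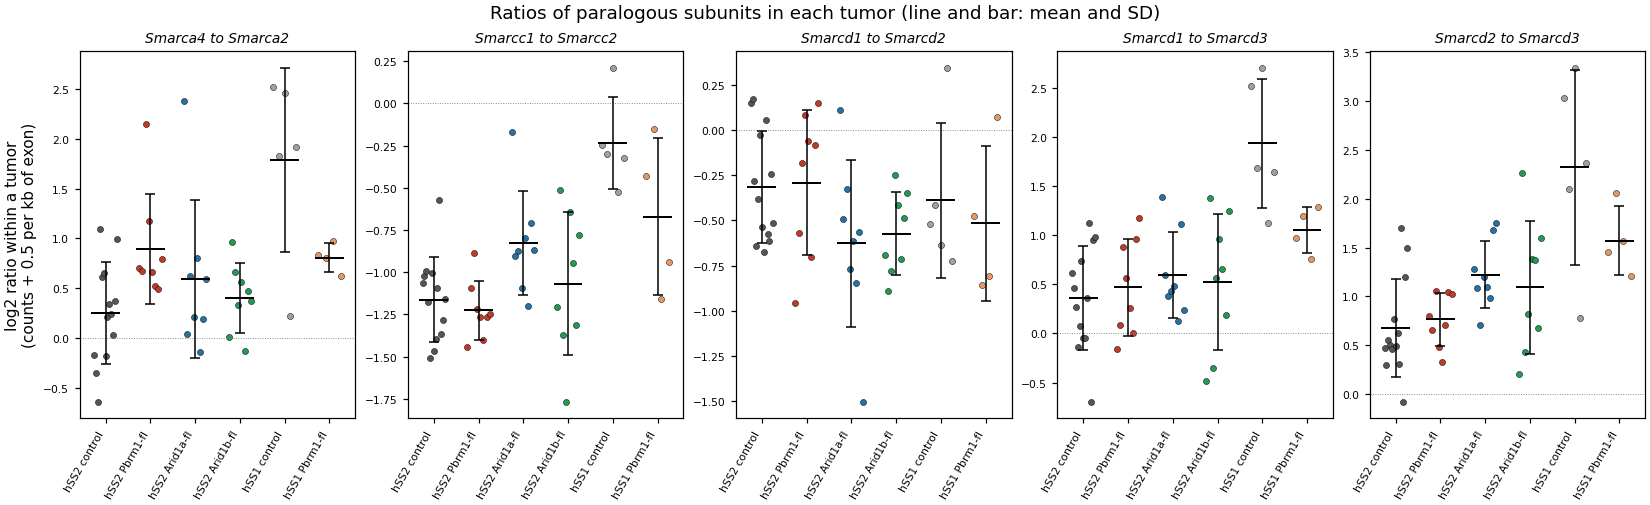
Log2 ratio of 5 pairs of paralogs within each tumor (vertical axis, counts plus 0.5 per kb of exon), by group, with mean and SD. The Smarca4 to Smarca2 ratio is above the hSS2 control median in 8 of 8 hSS2 Pbrm1-fl tumors, and below the hSS1 control median in 4 of 4 hSS1 Pbrm1-fl tumors.

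Pairs of members were then followed across the 37 hSS2 tumors, each gene centered on its group mean so that differences between groups play no part. Of the 45 pairs, 21 correlated past the threshold (permutation within groups, 100000 resamples, Benjamini-Hochberg over the 45), 18 positively and 3 negatively. These pairs were examined after the levels had been seen. How often pairs of other genes pass the same test was not determined, so the count is not shown to be particular to these genes. Smarca4 and Smarcb1 were the most closely tied, with Pearson's r = 0.81 and Spearman's rho = 0.73 (adjusted permutation p = 6e-05 and 0.00011, n = 37). The r was 0.69, 0.91, 0.89 and 0.87 within the control, Pbrm1-fl, Arid1a-fl and Arid1b-fl groups, and each floxed group lies in a single mouse number range. It was 0.76 without the 2 tumors farthest from the median, and 0.75 and 0.71 with the muscle and the proliferation score removed. In the 9 hSS1 tumors it was 0.76. Smarca4, Smarcb1, Smarcc1, Smarcd1, Smarce1 and Actl6a formed a group in which all 15 pairs passed, with r from 0.42 (Smarcb1 and Smarce1) to 0.81. With the muscle score removed r ran from 0.20 to 0.75, and with the proliferation score removed from 0.18 to 0.71. Not all were steady across groups: Smarca4 and Smarce1 had r = -0.03 in control tumors and 0.59, 0.65 and 0.81 in the Pbrm1-fl, Arid1a-fl and Arid1b-fl groups. In the 9 hSS1 tumors Smarcc1 had r = -0.14 with Smarcb1 and -0.15 with Smarca4. Smarce1 had -0.56 with Smarcb1 and -0.28 with Smarca4 there. The other pairs of the group had r from 0.07 (Smarcd1 and Actl6a) to 0.76.

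Smarca2 stood outside that group. It correlated past the threshold with Smarcc2 alone (r = 0.67, rho = 0.63, adjusted permutation p = 6e-05 and 0.0005, n = 37), at 0.64, 0.61, 0.89 and 0.52 within the 4 groups, 0.52 without the 2 farthest tumors, and 0.67 with either score removed. In the 9 hSS1 tumors the r was 0.64. Between the alternative ATPase genes Smarca4 and Smarca2 the r was 0.02 (rho = 0.15, adjusted permutation p = 0.929 and 0.497), with 0.53 in control tumors and -0.64 in Arid1a-fl tumors, so the groups did not share a sign. Smarcd3 was negatively related to Actl6a (r = -0.48), Smarce1 (-0.47) and Smarcd1 (-0.45), with adjusted permutation p of 0.0041, 0.0131 and 0.0166. Without the 2 farthest tumors these were -0.58, -0.51 and -0.62, and with the muscle score removed they were -0.26, -0.31 and -0.16. Smarcd2 passed only with Smarce1 (r = 0.51) and Smarcc1 (r = 0.46, rho = 0.33, where rho did not pass, adjusted permutation p = 0.107, and r was 0.28 without the 2 farthest tumors).

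**Figure D4:**
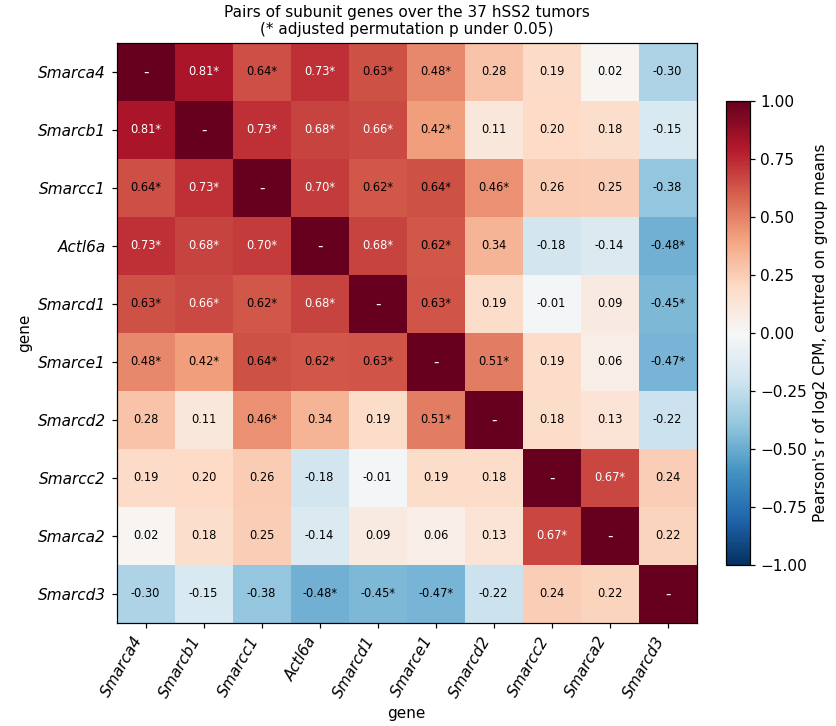
Pearson's r of log2 CPM for each pair of genes (rows and columns) over the 37 hSS2 tumors, centered on group means, with red positive and blue negative. Stars mark an adjusted permutation p under 0.05. The block of the first 6 genes, Smarca4 to Smarce1, is positive throughout (0.42 to 0.81), Smarca2 pairs with Smarcc2 (0.67), and Smarcd3 is negative with 3 members of the block.

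The levels of proliferation and skeletal muscle genes also varied between tumors, so each member was set against a proliferation score (mean log2 CPM of 25 genes) and a skeletal muscle score (15 genes) in the 13 hSS2 control tumors. Of these 20 relations, 3 passed. Smarcc1 rose with the proliferation score (r = 0.79, rho = 0.89, adjusted permutation p = 0.0157 and 0.0012), and r was 0.81 without the 2 tumors farthest from the median score. Smarcb1 did so as well (r = 0.73, rho = 0.88, adjusted permutation p = 0.0172 and 0.0013, r = 0.74 without the 2 tumors). Smarcc1 fell as the muscle score rose (r = -0.77, adjusted permutation p = 0.0157), although rho (-0.70) did not pass (adjusted permutation p = 0.0663) and r was -0.67 with an adjusted permutation p of 0.0982 without hSS2 control replicate 10. The muscle score relations of Smarce1 (r = -0.65, rho = -0.60) and Actl6a (r = -0.66, rho = -0.65) had an adjusted permutation p of 0.0686 for r. Both passed without hSS2 control replicate 6 (r = -0.74 and -0.86, adjusted permutation p = 0.0294 and 0.0052), and Smarce1 without replicate 13 (r = -0.76, adjusted permutation p = 0.0237). Smarca4 (r = 0.36, rho = 0.38) and Smarca2 (r = 0.49, rho = 0.52) did not pass against the proliferation score (adjusted permutation p of 0.204 or over), nor did Actl6a (r = 0.52, rho = 0.51, adjusted permutation p = 0.207 and 0.204). The floxed groups of 8 tumors each were not tested and are given as a description. In Pbrm1-fl, Arid1a-fl and Arid1b-fl tumors the r with the proliferation score was 0.92, 0.84 and 0.86 for Actl6a and 0.71, 0.85 and 0.46 for Smarca4. For Smarca2 it was -0.13, -0.58 and 0.52, so the groups did not share a sign. Smarcb1 had 0.70, 0.67 and 0.79 and Smarcc1 0.68, 0.51 and 0.60. The scores themselves had r = -0.47 and rho = -0.40 (permutation p = 0.106 and 0.181), which became r = -0.74 without the 2 farthest tumors. The mouse number ranges hold 5, 4 and 4 of the control tumors, too few for a value within each.

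**Figure D5:**
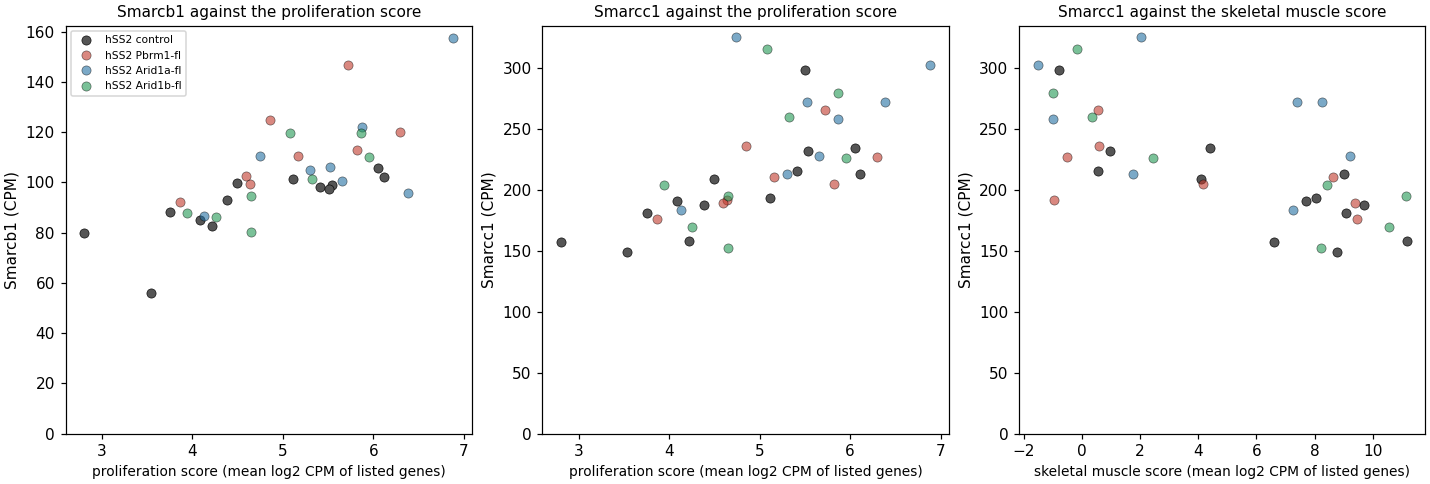
Smarcb1 and Smarcc1 (CPM, vertical axes) against the proliferation score and the skeletal muscle score (horizontal axes, mean log2 CPM of the listed genes) in the 37 hSS2 tumors. The tests used log2 CPM of each gene, not the plotted CPM, in the 13 control tumors (dark gray points). Over these r was 0.73, 0.79 and -0.77 from left to right.

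Of the 19 other BAF-family subunits listed, 18 were tested in the hSS2 comparisons. Against hSS2 controls 1 of 18 was called in Pbrm1-fl tumors, Pbrm1 itself (-1.27, SE 0.088, adjusted p = 4.2e-12), where 7.35% of all tested genes were called. In Arid1a-fl tumors 1 of 18 was called, Arid1a itself (-0.95, SE 0.13, adjusted p = 7.01e-05), where 3.17% of all tested genes were. In Arid1b-fl tumors 0 of 18 were called by edgeR, with 1 at an unadjusted p under 0.05, against 1250 of all 20083 tested genes. Arid1b itself was at -0.80 (SE 0.19, adjusted p = 0.145). Their median log2 fold changes were 0.05, -0.03 and 0.03 in the 3 groups. In hSS1 Pbrm1-fl tumors 0 of 18 were called, and Pbrm1 was at -0.75 (SE 0.24, adjusted p = 0.193). Of the 18, 3 had an unadjusted p below 0.05, against 3059 of all 17786 tested genes. Between hSS1 and hSS2 control tumors 7 of 19 were called, where 24.7% of all tested genes were. Higher in hSS1 controls were Actl6b (3.05, SE 0.85), the neuronal counterpart of Actl6a, and Bcl7a (0.89, SE 0.18), Bcl7c (0.44, SE 0.096), Arid1a (0.43, SE 0.14), Arid2 (0.37, SE 0.13) and Pbrm1 (0.32, SE 0.12), and Bcl7b was lower (-0.55, SE 0.12). In the interaction of Pbrm1 disruption with background 1 of 19 was called, Bcl7a (-1.003, SE 0.29, adjusted p = 0.0446), where 2.86% of all tested genes were. In the direct comparisons of floxed hSS2 groups the calls were of the disrupted genes themselves and of Ss18l1, which was higher in Pbrm1-fl than in Arid1a-fl tumors (0.47, SE 0.12, adjusted p = 0.0109). The genes whose log2 CPM, centered on group means, followed Smarca4 most closely over the 37 hSS2 libraries were Srrt (r = 0.85, rho = 0.84), Xrcc1 (r = 0.85, rho = 0.84) and Ppp5c (r = 0.84, rho = 0.81). For Smarca2 they were Fam241b (r = 0.88, rho = 0.84), Mcc (r = 0.88, rho = 0.82) and Ttc8 (r = 0.79, rho = 0.67). These are the highest of 17286 genes compared and are given as a description with no test.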

How the data were processed

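RNA was sequenced from 46 whole fresh-frozen tumors in 6 groups taken from the sample titles, each from its own numbered mouse. Per the study's methods, rRNA-depleted stranded libraries were aligned with STAR 2.7.11 to mm10 and counted with featureCounts 1.6.3. The annotation release, strand setting and treatment of multi-mapping reads are not given in the sources used here. The authors deposited raw read counts per gene in 1 table for hSS2 and 1 for hSS1. Symbols, exon lengths and overlaps came from GENCODE M21 of GRCm38, which may not be the annotation used for counting.

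The members and gene lists were chosen with earlier results of these data known. Counts were filtered with filterByExpr, scaled by TMM and tested with edgeR 4.0.16 (R 4.3.3, robust two-sided quasi-likelihood F-tests, adjusted p under 0.05). The 37 hSS2 and the 9 hSS1 libraries were fitted apart, and all 46 together over 56854 shared genes for the interaction and for the comparison of control tumors. The SE is the absolute log2 fold change over the square root of F. Paralog ratios used counts plus 0.5 per kb and exact permutation over tumors, adjusted over 25 tests (5 ratios in 5 comparisons). Scores are mean log2 CPM (prior count 2), and correlations used 100000 two-sided permutations. By rule, the text names all 10 members, other subunits past the threshold against controls and the 3 genes most correlated with Smarca4 and with Smarca2. Further values were named after they were seen. Alternatives were DESeq2 1.42.0 and its size factors, no filter, same-range controls, leaving out each tumor, another added count, prior count or scaling and, chosen after seeing the data, score covariates and principal transcript lengths. The pair correlations and the test of ratio effects between backgrounds were also added then. Tests were checked on simulated data.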

Additional observations from a re-analysis of the deposited data

Results flagged for a closer look

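In groups of 4 to 8 tumors, 6 of 75 sets of values held a tumor whose gap to its nearest neighbor was large relative to the range of the group (Dixon's test at 95%), where chance gives about 1 in 20. The Smarca4 to Smarca2 log2 ratio was 2.15 in hSS2 Pbrm1-fl replicate 3, with the next tumor at 1.17. In hSS2 Arid1a-fl replicate 1 Smarca2 was at 189.6 CPM, with the next tumor at 358. The same tumor had a Smarca4 to Smarca2 log2 ratio of 2.38 (next 0.81) and a Smarcc1 to Smarcc2 log2 ratio of -0.17 (next -0.71). In hSS1 control replicate 4 Smarca2 was at 605 CPM (next 214) and the Smarcd1 to Smarcd2 log2 ratio at 0.35 (next -0.42). These 6 values come from 3 tumors.

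The effect of Pbrm1-fl on the Smarca4 to Smarca2 ratio differed between backgrounds by -1.62 on the log2 scale (exact permutation, adjusted p = 0.0295), being 0.64 in hSS2 and -0.98 in hSS1. The tumors hSS2 Pbrm1-fl replicate 3 and hSS1 control replicate 4 named above both enter this value. Without the former it was -1.44, and without the latter -2.01. Pbrm1 was also less depleted in hSS1 than in hSS2 Pbrm1-fl tumors, and the part of this was not tested.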

How the results depend on the processing

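No paired analysis was possible because the sources used here do not say which tumors came from the same litter, although littermates served as controls. With control tumors of the same mouse number range, 0 members were called in hSS2 Pbrm1-fl tumors and 0 ratio effects differed between backgrounds. In hSS2 Arid1a-fl tumors 0 members were called with no filter, 1 with the muscle score and 0 with the proliferation score as covariate. Between hSS2 Pbrm1-fl and Arid1a-fl tumors, DESeq2 size factors, the DESeq2 test and the muscle score each gave 1. With the proliferation score 3 members were called between hSS1 and hSS2 controls, and scaling by library total gave 5 score relations rather than 3. Leaving out 1 tumor gave 0 to 2 members in hSS2 Pbrm1-fl, 0 to 4 in hSS2 Arid1a-fl, 0 in hSS2 Arid1b-fl and 0 in hSS1 Pbrm1-fl against controls, 0 to 2 between hSS2 Pbrm1-fl and Arid1a-fl, 0 in the other direct comparisons, 0 to 1 for the interaction and 7 to 9 between controls. Ratios called ranged 0 to 1 in hSS2 Pbrm1-fl, 0 to 2 in hSS2 Arid1a-fl, 0 in hSS2 Arid1b-fl and hSS1 Pbrm1-fl, 4 between controls and 0 to 3 between backgrounds, and score relations 2 to 5. Signs turned only for values that were not called. In hSS2 Pbrm1-fl tumors Smarcc1 became -0.020 with same-range controls and -0.0058 with the muscle score, Smarcd1 -0.038 and -0.00045, Smarcd3 0.047 with the muscle score, and the Smarcd1 to Smarcd2 ratio -0.14 with same-range controls. In hSS2 Arid1a-fl tumors Smarca2 became 0.30 with same-range controls and Smarcd1 -0.025 with the proliferation score. In hSS2 Arid1b-fl tumors Smarca2 became -0.026, -0.0082 and -0.0079 with same-range controls, the muscle and the proliferation score, Smarcc2 -0.099 and Smarcd1 0.12 with same-range controls, Smarcd1 0.0052 with no filter and Actl6a -0.0036 with the proliferation score. In hSS1 Pbrm1-fl tumors Smarca4 became 0.042 and Smarcb1 0.20 with the proliferation score. Leaving out 1 tumor turned the sign of further values that were not called, over ranges of -0.10 to 0.0061 for Smarcd3 in hSS2 Pbrm1-fl tumors, -0.11 to 0.071 for Smarca2 and -0.017 to 0.078 for Smarcc2 in hSS2 Arid1a-fl tumors, -0.12 to 0.082 for Smarca2, -0.016 to 0.068 for Smarce1 and -0.062 to 0.073 for Smarcd1 in hSS2 Arid1b-fl tumors, and -0.17 to 0.036 for Smarcb1 in hSS1 Pbrm1-fl tumors. The difference in the Smarcd1 to Smarcd2 ratio ranged from -0.037 to 0.12 in hSS2 Pbrm1-fl tumors, -0.32 to 0.058 in hSS1 Pbrm1-fl tumors, -0.26 to 0.0098 between controls and -0.35 to 0.032 between backgrounds. The r ranged from -0.20 to 0.16 for Smarcd3 with the proliferation score, and from -0.27 to 0.098 for Smarca4 and -0.38 to 0.33 for Smarcd2 with the muscle score. The cause of these changes was not tested. Members had at least 243 counts in every tumor, and how much of the spread between tumors is counting error was not separated.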
